A study of Mus musculus with 30 samples.

Results

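The contrast described here asks whether the label of adipocyte β-catenin knockout went with different changes in gene expression in female and in male mouse adipocytes. It is the knockout effect in female adipocytes (AF, knockout minus control) minus the knockout effect in male adipocytes (AM, knockout minus control), on the log2 scale and gene by gene. It rests on the 23 adipocyte libraries of the 30 in the series and on autosomal and mitochondrially encoded genes, 31942 of the 35120 genes in the count table. Of these genes, 13576 had enough counts to be tested.

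The series profiled white fat of mice labelled Ctnnb1AdKO and of sex- and age-matched Ctnnb1fl/fl controls by strand-specific mRNA sequencing. The contrast used 6 AF control, 6 AF knockout, 6 AM control and 5 AM knockout libraries, and both genotype labels carry the floxed Ctnnb1 alleles. The labels give both the epididymal and the posterior subcutaneous depot as the source of every library, so a difference between sexes cannot be told apart from a difference in depot or in handling. They name neither the driver of the deletion, nor the exons it removes, nor the age of the mice, nor whether each library is a separate mouse, so the p-values measure the spread between these libraries. Levels are counts scaled to the library total (CPM) after TMM scaling, with no correction for gene length, given as mean ± SD with the number of libraries.

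β-catenin is the transcriptional arm of canonical Wnt signalling: Wnt ligands binding Frizzled and Lrp receptors stop its destruction, and it then joins Tcf and Lef factors at target genes. The same protein ties cadherins to the actin cytoskeleton. In fat, Wnt signalling is known for restraining the formation of adipocytes, and the mature adipocyte stores triglyceride, makes fatty acids from glucose and burns them in mitochondria. Female and male fat are known to differ in lipid synthesis and resident macrophages, and fat depots in their homeobox genes.

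The targeted gene did not separate the groups. Ctnnb1 (ENSMUSG00000006932, chromosome 9) stood at 317 ± 23.4 CPM in AF controls (n = 6), 341 ± 27.0 in AF knockouts (n = 6), 326 ± 8.83 in AM controls (n = 6) and 320 ± 28.6 in AM knockouts (n = 5), and the genotypes overlapped in both sexes. The difference of effects was 0.13 on the log2 scale (SE 0.11, adjusted p = 0.765 by edgeR's quasi-likelihood test). Loss of a few exons can leave the gene's total count as it was, so the groups rest on the labels alone. Total counts were 21070904 to 22209603 per library, and the summed level of 13 adipocyte markers lay between 68692 and 111287 CPM in every library. Summed marker levels are CPM of the library total, without TMM scaling. AF libraries 5 and 6 of both genotypes stood apart from AF libraries 1 to 4: in 1022 genes all 4 of them lay above the other 8 AF libraries and in 584 below (11.8% of the 13576 genes together). No label names a batch, and results without these 4 libraries are given below for part of the genes and lists only.

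Few genes were called for a different response between the sexes, which does not show that few differed. Of 13576 genes tested with edgeR, 2 passed an adjusted p of 0.05 (0.0147%): Serpina3k, with the higher effect in AF (0.00737% of genes in that direction), and Akirin2, with the lower effect in AF (0.00737%). At an unadjusted p below 0.05 there were 1211 genes (8.92%), where 679 would be expected from 13576 tests with no difference, 546 of them positive (4.02%) and 665 negative (4.90%). Over all tested genes the median difference was -0.01 with a median SE of 0.22, and 48.1% of estimates were positive. Among the 1211 genes, the effects pointed in opposite directions in 1039 (465 up in AF and down in AM, 574 down in AF and up in AM) and in the same direction in 172, of which 76 were larger in AF and 96 in AM. These genes were chosen by the difference of effects, which favours opposite signs, and over all 13576 genes the signs were opposite in 5896 (43.4%). By itself the AF comparison called 63 genes (0.464%), 44 higher (0.324%) and 19 lower (0.140%), and the AM comparison called 9 (0.0663%), 2 higher (0.0147%) and 7 lower (0.0516%). Calls made in 1 sex do not show a difference between the sexes, which is what the contrast tests. Across the 13576 genes the AF and AM effects had a Pearson correlation of 0.26 and a Spearman correlation of 0.19, as a description over genes, which are not independent.

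**Figure D1:**
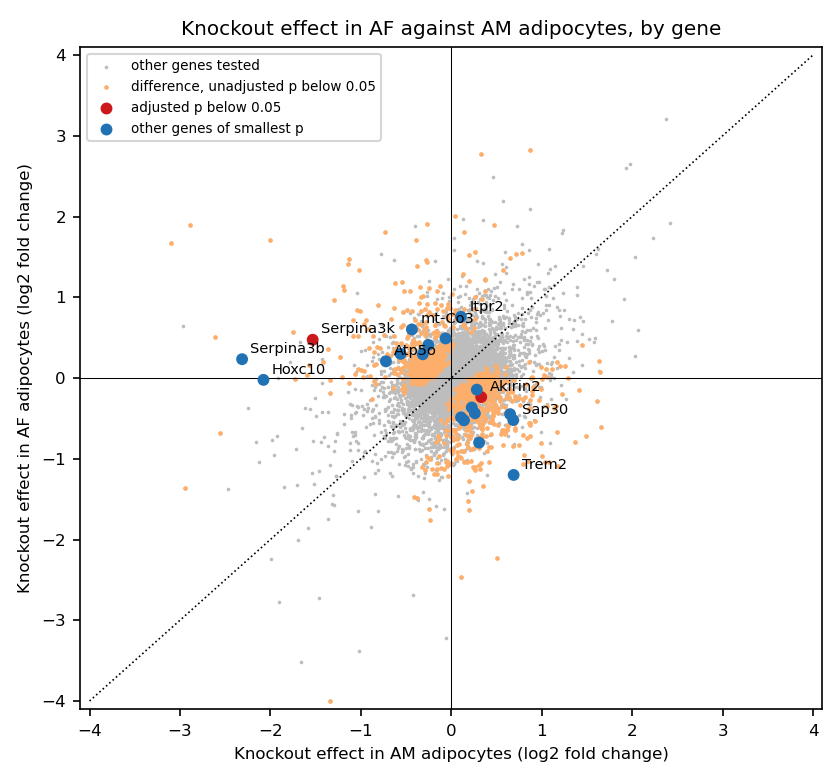
Each point is 1 of 13576 genes, with the knockout effect in AM adipocytes on the horizontal axis and in AF adipocytes on the vertical axis (log2 fold change, values beyond 4 drawn at the edge). Points off the dotted diagonal have a difference of effects: Serpina3k and Akirin2, in red, passed edgeR's adjusted test, and orange points have an unadjusted p below 0.05.

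The count of called genes depended on single libraries. It was 0 without AM knockout 1, AM knockout 2, AF control 5 or AF control 6, and 1 without AM knockout 4, AF control 3, AF control 4, or AF knockout 1, 3, 4 or 6. It was 4 without AM control 2 and 20 without AM knockout 5. Without AF libraries 5 and 6 of both genotypes 3 genes were called: Serpina3k, Coq8a and Galnt12, but not Akirin2. With those libraries as a term in the fit the 3 were Serpina3k, Akirin2 and Coq8a. DESeq2 called 20 genes on the same counts, 15 higher and 5 lower in AF, among them Serpina3k and Akirin2.

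Serpina3k, a secreted serine protease inhibitor of the α1-antichymotrypsin family (ENSMUSG00000058207, chromosome 12), was at 0.625 to 1.65 CPM (median 0.982) in AF controls and 0.941 to 2.46 (median 1.57) in AF knockouts. In AM controls it was at 6.37 to 9.34 CPM (median 7.84), and the 5 AM knockouts had 2.10, 2.22, 2.68, 2.92 and 3.34 CPM. The AF genotypes overlapped, whereas every AM knockout lay below every AM control and above most AF libraries. The means were 1.13 ± 0.418 and 1.58 ± 0.508 CPM in AF (n = 6 each), and 7.68 ± 1.15 (n = 6) against 2.65 ± 0.510 (n = 5) in AM. The AM effect was a log2 fall of -1.53 (SE 0.22), which passed (adjusted p = 0.00211). The AF effect of 0.47 (SE 0.23) did not pass (adjusted p = 0.482). The difference of effects was 2.01 (SE 0.32, adjusted p = 0.0213, edgeR's quasi-likelihood test). This call was lost without AM knockout 1 (adjusted p = 0.0585), AM knockout 2 (0.0770), AF control 5 (0.0578) or AF control 6 (0.0581), and when the stromal-vascular libraries joined the fit (0.680).

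Serpina3k belongs to a cluster of near-identical inhibitor genes on chromosome 12, in which reads may be split between copies. The cluster was examined after its values were seen. All 10 measured members had a positive difference of effects, with a median of 1.15, against a median of -0.01 and 48.1% positive over all genes. Serpina3k and Serpina3b, named for their small p, are among the 10, and shared reads tie the members together. The count and the median are therefore a description and not independent evidence. Serpina3k was the member called by edgeR with all libraries. Serpina3b came next, at 11.0 to 34.3 CPM (median 25.6) in AM controls and 3.32, 4.06, 4.58, 4.77 and 6.82 CPM in AM knockouts. In AF it was at 2.19 to 7.99 CPM (median 3.55) in controls and 2.87 to 8.17 (median 4.71) in knockouts. As with Serpina3k, the AM genotypes did not overlap and the AF genotypes did. The Serpina3b effect was -2.31 in AM (SE 0.34, adjusted p = 0.00377) and 0.23 in AF (SE 0.33, adjusted p = 0.860), a difference of 2.55 that did not pass with edgeR (SE 0.47, adjusted p = 0.0779). It passed with DESeq2 (adjusted p = 6.96e-05), and with edgeR without AM control 5 (0.0309), AM control 6 (0.0427), AM knockout 5 (0.0496) or AF control 1 (0.0168). Serpina3n, an inhibitor secreted by adipocytes and hepatocytes, went from 597 ± 75.0 to 847 ± 164 CPM in AF (n = 6 each) and from 1137 ± 92.9 (n = 6) to 1006 ± 169 (n = 5) in AM. Its difference was 0.68 (SE 0.18), which did not pass with edgeR (adjusted p = 0.311) and passed with DESeq2 (0.0479). Serpina3c, with 227 ± 28.5 and 235 ± 41.7 CPM in AF, and 446 ± 75.1 and 327 ± 24.6 CPM in AM, had a difference of 0.50 (SE 0.17, adjusted p = 0.421). The remaining members differed by 0.57 (Serpina3f, SE 0.54) to 1.60 (Serpina3h, SE 0.71), none past edgeR's test with all libraries, and Serpina3m passed without AM knockout 5 (1.68, adjusted p = 0.0496). Serpina3h was near the detection limit, with means of 0.101 CPM in AF controls and 0.142 CPM in AF knockouts. Serpina3g had means of 0.676 to 1.16 CPM in the 4 groups.

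RefSeq promoters, 250 bases before to 50 bases after the start of the gene, were at hand for 7 of the 10 measured cluster genes (Serpina3b, c, f, g, i, j and n). Those of Serpina3b, Serpina3c and Serpina3n are printed because they share the longest run found in at least 6 of the 7, CATTTCCTAAGA, which is in capitals below. The build is GRCm38.p6, whereas the counts were made on mm39. Serpina3b lies on the plus strand (chr12:104127746-104128045), Serpina3c on the minus strand (chr12:104153823-104154122) and Serpina3n on the plus strand (chr12:104406458-104406757), and each is read 5′ to 3′ in the direction of its gene.
Serpina3b: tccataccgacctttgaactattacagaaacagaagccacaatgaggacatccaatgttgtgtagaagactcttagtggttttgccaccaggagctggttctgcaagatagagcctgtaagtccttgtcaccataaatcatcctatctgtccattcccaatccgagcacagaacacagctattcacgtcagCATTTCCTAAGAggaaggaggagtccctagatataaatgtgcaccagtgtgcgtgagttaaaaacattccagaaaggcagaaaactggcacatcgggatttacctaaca
Serpina3c: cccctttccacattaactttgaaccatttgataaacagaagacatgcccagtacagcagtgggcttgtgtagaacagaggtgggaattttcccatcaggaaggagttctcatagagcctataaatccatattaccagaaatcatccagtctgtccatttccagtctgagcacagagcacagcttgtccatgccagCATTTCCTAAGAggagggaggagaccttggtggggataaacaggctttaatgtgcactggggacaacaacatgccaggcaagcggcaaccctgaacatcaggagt
Serpina3n: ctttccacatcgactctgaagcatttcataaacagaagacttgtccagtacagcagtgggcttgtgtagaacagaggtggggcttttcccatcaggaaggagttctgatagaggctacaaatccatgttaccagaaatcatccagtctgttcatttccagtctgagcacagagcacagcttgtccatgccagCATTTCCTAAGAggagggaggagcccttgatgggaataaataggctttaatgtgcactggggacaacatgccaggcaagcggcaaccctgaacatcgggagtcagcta
The 12-base run began 59 bases before the start of Serpina3b, 55 before that of Serpina3c and 58 before that of Serpina3n. It was in promoters of 6 of the 7 genes, also those of Serpina3f, Serpina3g and Serpina3i, with Serpina3j lacking it. In Serpina3g it began 32 bases after the start of the gene. Read on both strands, it was in 12 of 32851 RefSeq promoters (0.0365%), which belonged to 11 genes, 6 of them these cluster genes. The run was picked from the cluster promoters, so its rarity elsewhere is no test. The match describes related sequences and is not evidence of a binding site.

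Akirin2, a nuclear protein that brings proteasomes into the nucleus and takes part in inflammatory gene expression (ENSMUSG00000028291, chromosome 4), had opposite estimates in the 2 sexes. It was at 35.7 to 38.9 CPM (median 37.5) in AF controls and 30.6 to 33.3 (median 31.5) in AF knockouts. In AM it was at 24.2 to 31.0 CPM (median 28.6) in controls and at 32.2, 34.3, 36.4, 36.9 and 38.2 CPM in the knockouts. Every AF knockout lay below every AF control, and every AM knockout above every AM control. Without overlap, knockouts lay above controls for 69 genes in AF (0.508%) and 122 in AM (0.899%), and below for 42 in AF (0.309%) and 132 in AM (0.972%). Akirin2 was the only 1 of the 13576 genes below in AF and above in AM (0.00737%), and 0 had the opposite pattern. The means were 37.4 ± 1.04 and 31.8 ± 1.24 CPM in AF (n = 6 each), and 28.3 ± 2.39 (n = 6) and 35.6 ± 2.39 (n = 5) in AM. The difference of effects was -0.57 (SE 0.10, adjusted p = 0.0299, edgeR's quasi-likelihood test), made of an AF effect of -0.24 (SE 0.07, adjusted p = 0.126) and an AM effect of 0.33 (SE 0.07, adjusted p = 0.0700). Neither effect passed by itself. The call held in 22 of 38 alternatives and was lost without any of 11 single libraries (AM knockout 1, 2 or 4, AF control 3, 4, 5 or 6, AF knockout 1, 3, 4 or 6), with adjusted p from 0.0508 to 0.0858, without a filter on low counts (0.309), with a replicate block (0.173 and 0.226), without AF libraries 5 and 6 of both genotypes (0.114) and with all 30 libraries (0.708).

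**Figure D2:**
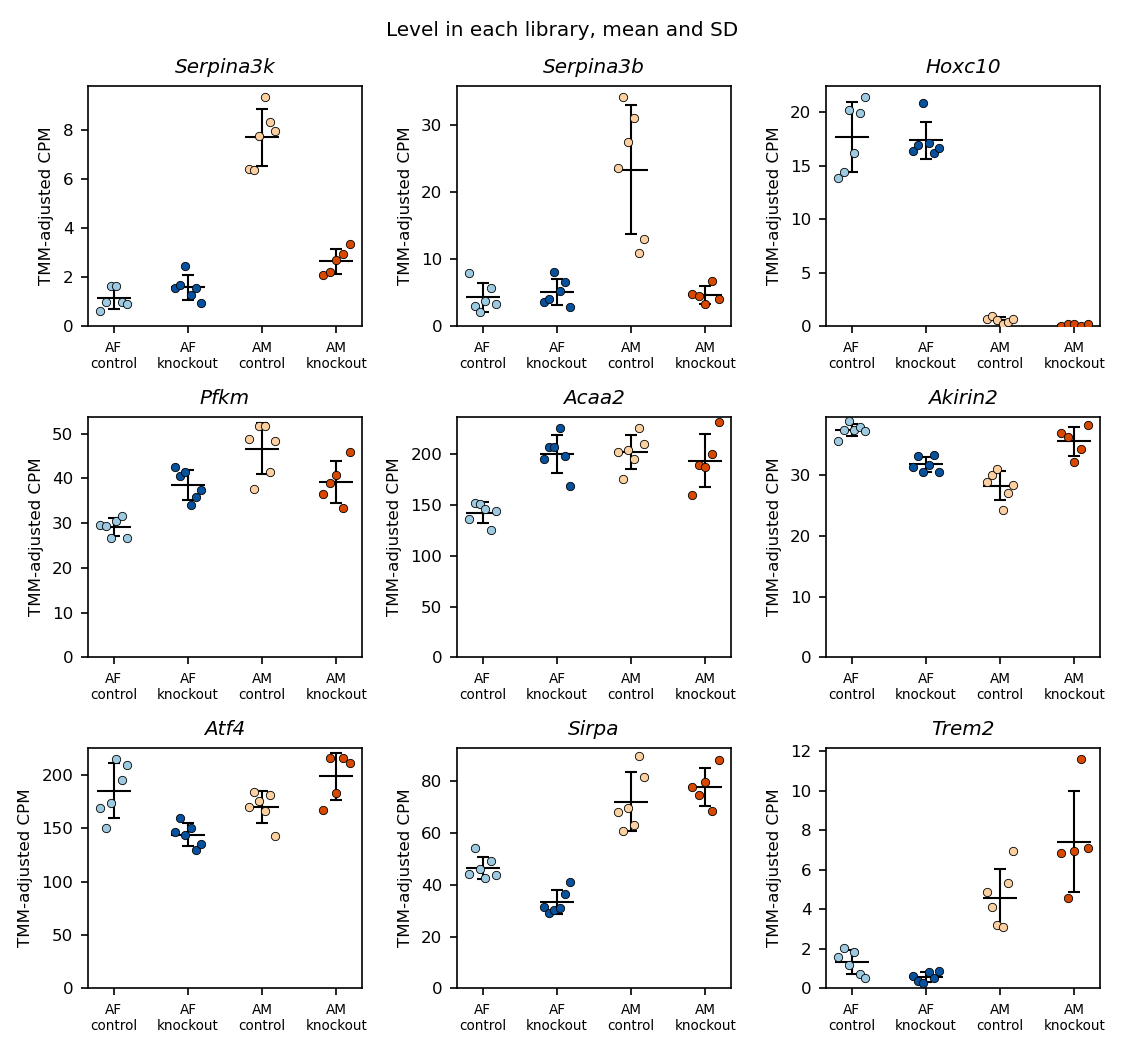
TMM-adjusted CPM of 9 genes in each of the 23 libraries, with the group mean (bar) and SD (whiskers). Serpina3k and Serpina3b drop from AM controls to AM knockouts while the AF libraries stay low, and Akirin2 lies lower in AF knockouts and higher in AM knockouts with no overlap in either sex.

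The other 18 genes of smallest p in either direction did not pass edgeR's adjusted test with all libraries. DESeq2 called 13 of them, and edgeR called 6 without AM knockout 5. Among those with the higher effect in AF, Hoxc10, a homeobox factor of the posterior body that marks subcutaneous fat, was at 13.8 to 21.4 CPM (median 18) in AF controls and 16.2 to 20.8 (median 16.8) in AF knockouts. It was at 0.227 to 0.947 CPM (median 0.602) in AM controls and at 0.0437, 0.0443, 0.181, 0.181 and 0.216 CPM in AM knockouts, which are 1 to 5 counts per library. The AF and AM libraries did not overlap, and sex and depot cannot be told apart here. Each AM knockout lay below each AM control, at a level near the detection limit. The difference of effects was 2.05 (SE 0.41, adjusted p = 0.110).

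Pfkm, the muscle-type phosphofructokinase of glycolysis, was at 26.6 to 31.7 CPM (median 29.5) in AF controls and 34.0 to 42.6 (median 38.9) in AF knockouts, which did not overlap. AM controls had 37.7 to 51.8 CPM (median 48.7), and AM knockouts had 33.4, 36.6, 39.0, 40.8 and 45.9 CPM, which overlapped. The AF rise of 0.41 passed (SE 0.09, adjusted p = 0.0395), the AM effect of -0.25 did not (adjusted p = 0.255), and the difference of 0.66 missed the threshold (SE 0.13, adjusted p = 0.110). Pfkm passed without AM control 2 (adjusted p = 0.0210) or AM knockout 5 (0.0194).

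Acaa2, the thiolase that ends each round of mitochondrial fatty acid oxidation, was at 125 to 153 CPM (median 145) in AF controls and 169 to 226 (median 203) in AF knockouts. AM controls had 176 to 226 CPM (median 204), and AM knockouts had 160, 187, 190, 200 and 232 CPM. The AF genotypes were apart and the AM genotypes overlapped. The AF rise was 0.49 (SE 0.09, adjusted p = 0.00769), the AM effect -0.06 (adjusted p = 0.812) and the difference 0.55 (SE 0.13, adjusted p = 0.277). Itpr2, an IP3-gated calcium channel of the endoplasmic reticulum, showed the same arrangement, with 12.1 to 17.5 CPM (median 14.4) in AF controls, 19.8 to 27.7 (median 25.1) in AF knockouts, 22.0 to 27.8 (median 24.4) in AM controls and 19.7, 25.5, 27.6, 29.2 and 29.4 in AM knockouts. It rose by 0.76 in AF (SE 0.11, adjusted p = 0.00105), and the difference of 0.65 did not pass (SE 0.15, adjusted p = 0.283).

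In 3 further genes the AF estimate was above 0 and the AM estimate below. Coq8a, an atypical kinase needed to make coenzyme Q, had a median of 56.7 CPM in AF controls and 78.7 in AF knockouts, where the ranges overlapped, and 77.5 against 55.8 CPM in AM, where every knockout (42.1 to 64.5) lay below every control (67.3 to 90.1). Its difference was 0.86 (SE 0.19, adjusted p = 0.277), and it passed without AF libraries 5 and 6 of both genotypes (1.05, adjusted p = 0.0246). Lgals3bp, a secreted galectin-binding glycoprotein, had medians of 265 and 324 CPM in AF without overlap (216 to 279 against 282 to 334), and of 401 and 317 CPM in AM, for a difference of 0.61 (SE 0.14, adjusted p = 0.277). Atp5o, a stalk subunit of the mitochondrial ATP synthase, had medians of 16.5 and 17.9 CPM in AF and of 20.9 and 11.2 CPM in AM. Its effect was 0.21 in AF (SE 0.15) and -0.72 in AM (SE 0.16), so most of the difference of 0.93 (SE 0.22, adjusted p = 0.283) came from AM.

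Among genes with the lower effect in AF, Atf4, the transcription factor of the integrated stress response, was at 150 to 215 CPM (median 184) in AF controls and 129 to 160 (median 145) in AF knockouts. The AM controls had 142 to 184 CPM (median 173), and the knockouts had 167, 183, 211, 215 and 216 CPM. The genotypes overlapped in both sexes. The difference was -0.59 (SE 0.14, adjusted p = 0.277), from -0.36 in AF and 0.23 in AM. Ifrd1, a transcriptional coregulator, had a difference of -0.70 (SE 0.17, adjusted p = 0.283), with medians of 859 and 664 CPM in AF and 745 and 945 CPM in AM. Sap30, a subunit of the Sin3 histone deacetylase complex, had -1.21 (SE 0.26, adjusted p = 0.236) at medians of 1.73 to 2.89 CPM in the 4 groups. The nuclear RNA Neat1, the scaffold of paraspeckles, had -1.10 (SE 0.27, adjusted p = 0.285), with medians of 204 and 140 CPM in AF and 86.6 and 140 CPM in AM. Ppp2cb, a catalytic subunit of protein phosphatase 2A, had -0.43 (SE 0.11, adjusted p = 0.306). B4galt2, a Golgi galactosyltransferase, fell by 0.52 in AF (SE 0.11, adjusted p = 0.0359), from a median of 9.99 to 6.74 CPM, and had 11.6 and 12.8 CPM in AM, for a difference of -0.66 (SE 0.16, adjusted p = 0.285).

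The other 3 genes with the lower effect in AF are known from macrophages. Trem2, a lipid-sensing receptor, was at 0.532 to 2.03 CPM (median 1.38) in AF controls and 0.246 to 0.894 (median 0.557) in AF knockouts. In AM it was at 3.08 to 6.96 CPM (median 4.51) in controls and at 4.58, 6.87, 6.95, 7.09 and 11.6 CPM in knockouts. AF libraries were below AM libraries throughout, and the genotypes overlapped in both sexes. The difference was -1.89 (SE 0.45, adjusted p = 0.283). Sirpa, the inhibitory receptor for Cd47, fell by 0.49 in AF (SE 0.10, adjusted p = 0.0302), from 42.6 to 54.1 CPM (median 45.0) to 29.2 to 41.2 CPM (median 31.2) with no overlap. It was at medians of 68.9 and 77.9 CPM in AM, for a difference of -0.60 (SE 0.15, adjusted p = 0.285). Slc11a1, a metal transporter of phagosomes, had a difference of -1.11 (SE 0.28, adjusted p = 0.285), with medians of 5.49 and 3.28 CPM in AF and 11.6 and 15.9 CPM in AM.

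**Figure D3:**
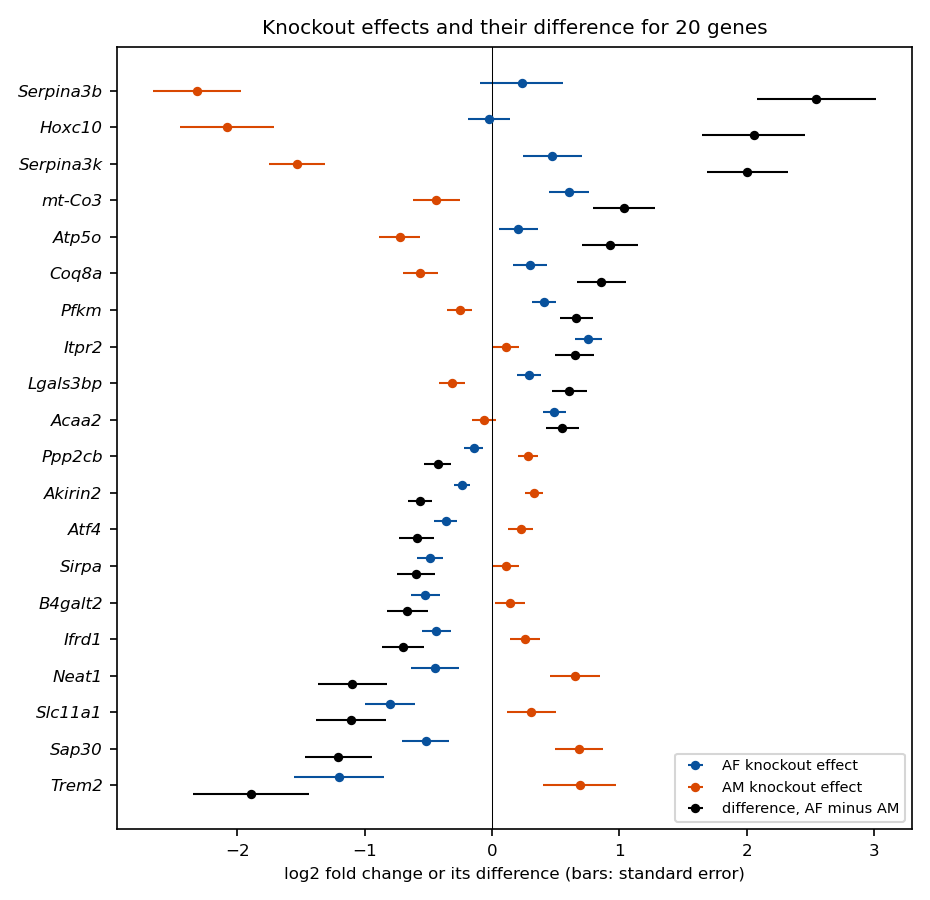
Knockout effect in AF (blue), in AM (orange) and their difference (black) for the 20 genes of smallest p in either direction, on the log2 scale with bars of 1 standard error. Serpina3k and Akirin2 are the 2 whose difference passed edgeR's adjusted test, and most of the 20 have AF and AM effects on opposite sides of 0.

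Macrophage markers had lower estimates alongside these genes. Of 21 measured markers, 20 had a lower effect in AF than in AM and 11 had an unadjusted p below 0.05 in that direction, where 4.90% of all genes did, but none passed the adjusted test with edgeR. Trem2 is 1 of the 21 and was called by DESeq2 (-1.89, adjusted p = 0.0309). Without Trem2, which was named above for its small p, 19 of 20 were lower, 10 of them with an unadjusted p below 0.05, and the median was -0.78. Over all 21 the median difference was -0.82, from a median AF effect of -0.93 and AM effect of -0.16. It was -1.22 without AF libraries 5 and 6 of both genotypes. The summed level of the 21 markers was 324 to 670 CPM (median 430) in AF controls and 106 to 402 (median 257) in AF knockouts. It was 702 to 1316 CPM (median 925) in AM controls and 822 to 1293 (median 878) in AM knockouts. The AF knockouts lay lower with some overlap, the AM genotypes covered the same range, and no marker was at 0 in a whole group. Csf1r, the receptor for the macrophage growth factor Csf1, had 32.4 ± 6.49 and 16.5 ± 7.43 CPM in AF (n = 6 each), and 104 ± 31.8 (n = 6) and 86.3 ± 16.3 (n = 5) in AM, for a difference of -0.71 (SE 0.33, adjusted p = 0.556). Gpnmb, a glycoprotein of lipid-laden macrophages, had 1.73 ± 1.09 and 1.05 ± 0.531 CPM in AF, and 16 ± 9.82 and 44.9 ± 25.4 in AM, for a difference of -2.21 (SE 0.62, adjusted p = 0.352). C1qc, a chain of complement C1q, fell by 1.19 in AF (SE 0.26, adjusted p = 0.0376), and its difference of -1.03 did not pass (SE 0.37, adjusted p = 0.426). In such bulk libraries fewer macrophages and less macrophage RNA per cell cannot be told apart, and the part of these markers in the values of Trem2, Sirpa and Slc11a1 was not tested.

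Mitochondrially encoded transcripts rose as a share of counts in AF adipocytes. The share was 3.49 to 5.19% (median 4.43%) in AF controls and 5.92 to 8.12% (median 6.91%) in AF knockouts. It was 1.68 to 2.08% (median 1.79%) in AM controls and 1.51 to 2.89% (median 2.27%) in AM knockouts. Every AF knockout was above every AF control, the AM genotypes overlapped, and every AF library was above every AM library. The means were 4.37 ± 0.601% and 6.87 ± 0.824% in AF (n = 6 each), and 1.83 ± 0.149% (n = 6) and 2.28 ± 0.561% (n = 5) in AM. The knockout effect was 2.50 percentage points in AF (exact permutation test, two-sided, p = 0.00216) and 0.45 points in AM (p = 0.0996). Their difference was 2.05 points (exact permutation test of genotype within each sex over 426888 splits, two-sided, p = 0.0177), and 2.32 points without AF libraries 5 and 6 of both genotypes (exact permutation test, p = 0.0326). On the log2 of the share the difference was 0.37 and did not pass (exact permutation test, p = 0.197), so the call holds for percentage points and not for ratios. The null of this permutation is no genotype difference in either sex, which is wider than equal effects.

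**Figure D4:**
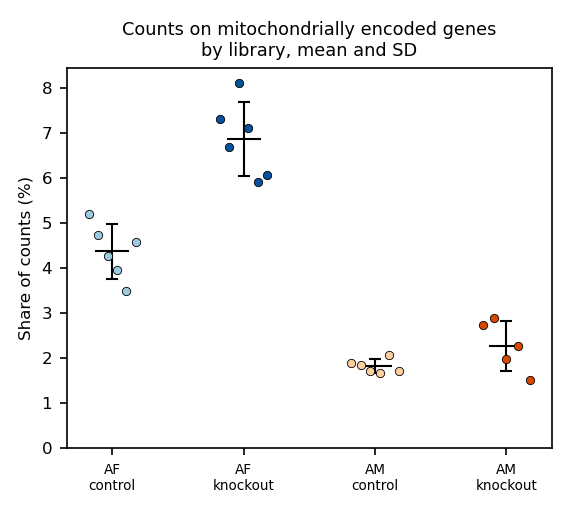
Share of counts on mitochondrially encoded genes (%) in each of the 23 libraries, with the group mean (bar) and SD (whiskers). The 6 AF knockouts (5.92 to 8.12%) lie above the 6 AF controls (3.49 to 5.19%), and the AM genotypes overlap between 1.51 and 2.89%.

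By gene, all 12 measured mitochondrially encoded protein genes had a positive difference of effects, with a median of 0.55 (0.73 in AF, 0.06 in AM), and 8 had an unadjusted p below 0.05 against 4.02% of all genes. None passed edgeR's adjusted test, and DESeq2 called mt-Co3 (1.04, adjusted p = 0.0238). The 12 genes belong to 1 genome and are part of the share tested above, in the same libraries. Their counts and median are therefore a description and not independent evidence. mt-Nd2, a subunit of complex I, had 2999 ± 727 and 5189 ± 847 CPM in AF (n = 6 each), and 1358 ± 225 (n = 6) and 1371 ± 271 (n = 5) in AM, for a difference of 0.78 (SE 0.23, adjusted p = 0.367). mt-Cytb, of complex III, had 8885 ± 1472 and 14790.0 ± 1749.7 CPM in AF, and 3482 ± 270.4 and 4178 ± 1120.0 in AM, for a difference of 0.47 (SE 0.21, adjusted p = 0.530). mt-Co3, of complex IV, was the member of smallest p, with a difference of 1.04 (SE 0.24, adjusted p = 0.277). It was counted at 1.31 to 8.12 CPM in all libraries, and reads shared with nuclear copies may be split. Of 41 genes of the nuclear-encoded respiratory chain, 35 had a positive difference and 3 an unadjusted p below 0.05, against 48.1% and 4.02% of all genes. Their median difference was 0.13. That median was 0.08 without AM knockout 1, 0.31 without AM knockout 5 and 0.03 when libraries were scaled by their totals alone.

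Genes of heat production and of fat synthesis had higher estimates in AF than in AM, none of them called by edgeR with all libraries. Of 18 thermogenic and brown fat genes, 14 had a positive difference and 10 an unadjusted p below 0.05, against 48.1% and 4.02% of all genes, with a median of 1.09 (1.05 in AF, 0.05 in AM). That median was 1.37 without AF libraries 5 and 6 of both genotypes. Cidea, a lipid droplet protein high in brown fat, rose in AF from 20.4 ± 10.6 to 82.2 ± 15.3 CPM (n = 6 each, adjusted p = 0.0364), and was at 8.41 ± 8.24 (n = 6) and 8.72 ± 5.85 CPM (n = 5) in AM. Its difference was 1.96 (SE 0.64, adjusted p = 0.407). Ppargc1a, the coactivator of mitochondrial biogenesis, rose in AF from 2.77 ± 1.29 to 6.46 ± 2.17 CPM (adjusted p = 0.0143), with 3.21 ± 0.474 and 4.18 ± 0.777 CPM in AM and a difference of 0.84 (SE 0.34, adjusted p = 0.514). Ppara, the fatty acid-activated receptor that drives oxidation genes, was the member of smallest p, with a difference of 1.33 (SE 0.42, adjusted p = 0.379). The uncoupling protein Ucp1 varied within groups, at 21.4 ± 27.8 and 79.7 ± 43.8 CPM in AF, and 5.78 ± 14.0 and 0.791 ± 0.864 CPM in AM, for a difference of 4.78 (SE 1.74, adjusted p = 0.433). The AM control mean rests on AM control 2, at 34.4 CPM, with at most 0.136 CPM in the other AM controls. Without that library the Ucp1 difference turned to -2.06 (adjusted p = 0.776) and the median of the thermogenic list was 0.75.

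Of 19 genes of mitochondrial fatty acid oxidation, 14 had a positive difference and 7 an unadjusted p below 0.05, with a median of 0.26 (0.16 in AF, -0.05 in AM). For this list and those that follow, 48.1% of all genes had a positive difference. A positive difference with an unadjusted p below 0.05 was found in 4.02%, and a negative one in 4.90%. Beside Acaa2, the trifunctional protein subunit Hadha had 314 ± 39.8 and 424 ± 41.8 CPM in AF (n = 6 each), and 377 ± 37.1 (n = 6) and 321 ± 97.0 (n = 5) in AM, for a difference of 0.67 (SE 0.19, adjusted p = 0.358). Without AM knockout 5, Hadha (0.87) and its partner subunit Hadhb (0.59) both passed (adjusted p = 0.0194 each). All 23 genes of de novo lipogenesis had a positive difference, 3 of them with an unadjusted p below 0.05, and the median was 0.49 (0.69 in AF, 0.02 in AM). That median was 1.02 without AM knockout 5 and 0.31 without AF knockout 1. Acacb, the mitochondrial acetyl-CoA carboxylase, was at 32.3 to 146 CPM (median 101) in AF controls and 70.4 to 401 (median 214) in AF knockouts. In AM it was at 244 to 415 CPM (median 309) in controls and at 140, 182, 208, 222 and 292 CPM in knockouts. The genotypes overlapped in both sexes, and the difference was 1.80 (SE 0.51, adjusted p = 0.362). Scd1, the stearoyl-CoA desaturase, had a difference of 0.88 (SE 0.30, adjusted p = 0.410), and the fatty acid synthase Fasn had 0.87 (SE 0.80, adjusted p = 0.801). Of 14 genes of triglyceride synthesis 12 were positive, of 20 of branched-chain amino acid breakdown 17, and of 16 of lipolysis 11, with medians of 0.25, 0.07 and 0.14, and at most 1 member of each list in each direction had an unadjusted p below 0.05. The median of branched-chain amino acid breakdown turned to -0.04 when libraries were scaled by their totals alone, which moved the median of all genes to -0.12. It was 0.03 without AF control 2, 0.14 without AF control 5 and 0.13 without AF libraries 5 and 6, and that of triglyceride synthesis was 0.14 without AM knockout 2. The lipolysis median was 0.21 without AF knockout 4, 0.11 without AM control 3 and 0.04 when libraries were scaled by their totals alone.

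Grb14, an adaptor that inhibits the insulin receptor, was higher in knockouts of both sexes. It was at 4.54 to 9.15 CPM (median 6.07) in AF controls and 17.5 to 22.7 (median 18.3) in AF knockouts. In AM it was at 17.2 to 36.9 CPM (median 26.3) in controls and at 32.8, 44.3, 49.9, 50.2 and 50.2 CPM in knockouts. The AF genotypes were apart and the AM genotypes overlapped. The AF rise was 1.55 (SE 0.18, adjusted p = 0.000126), the AM effect 0.78 (SE 0.18, adjusted p = 0.0795) and the difference 0.77 (SE 0.25, adjusted p = 0.407). In the glucocorticoid response list, 10 of 15 genes had a positive difference with a median of 0.25 (0.14 without AM control 1, 0.43 without AF control 4), and 3 had an unadjusted p below 0.05. These shares were 48.1% and 4.02% over all genes. Fkbp5, a chaperone of the glucocorticoid receptor, had medians of 16.4 and 18 CPM in AF and of 133 and 84.7 CPM in AM, for a difference of 0.72 (SE 0.24, adjusted p = 0.407). Hsd11b1, the enzyme that regenerates active glucocorticoid, had 22.2 ± 6.38 and 56.2 ± 24.4 CPM in AF, and 103 ± 11.1 and 154 ± 24.5 in AM. It was 1 of 3 genes (0.0221%) whose knockouts lay above the controls in both sexes without overlap, the others being Rfc4 and Gm7049, and its difference was 0.77 (SE 0.31, adjusted p = 0.516). Pon1 and Colec12 were the 2 genes (0.0147%) whose knockouts lay below the controls in both sexes.

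Of 26 interferon-stimulated genes, 25 had a positive difference, with a median of 0.35 (0.35 in AF, 0.01 in AM), and 4 had an unadjusted p below 0.05. Over all genes 48.1% of differences were positive, and 4.02% were positive with an unadjusted p below 0.05. Mx1, an antiviral GTPase, had the smallest p of the list at levels of at most 1.04 CPM, with a difference of 2.26 (SE 0.71, adjusted p = 0.379).

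Lists of acute stress genes had lower estimates in AF. Of 22 immediate-early genes 18 were negative, with a median of -0.25 (-0.13 in AF, 0.10 in AM) and 3 with an unadjusted p below 0.05. Their median was -0.35 without AF libraries 5 and 6 of both genotypes. Over all genes 48.1% of differences were positive, and 4.90% were negative with an unadjusted p below 0.05. Jund, a subunit of AP-1, had medians of 435 and 295 CPM in AF and of 378 and 389 CPM in AM, for a difference of -0.48 (SE 0.17, adjusted p = 0.428). Of 17 heat shock genes 14 were negative, with a median of -0.30 (-0.42 in AF, 0.00 in AM). The heat shock median was -0.17 without AF control 6 and also without AF libraries 5 and 6 of both genotypes, and that of the immediate-early genes -0.17 without AF knockout 3. Hspa5, the chaperone of the endoplasmic reticulum, had a difference of -0.39 (SE 0.16, adjusted p = 0.520). Of 48 cytosolic ribosomal protein genes 40 were negative with a median of -0.12, which was -0.04 without AF control 4 and 0.06 without AM knockout 5 and AF control 4 together. The core circadian clock was mixed: 8 of 17 genes were positive, with a median of -0.06 that changed sign in 10 of 38 alternatives. It was 0.20 without AF libraries 5 and 6 of both genotypes. Arntl, the activator of the clock and its member of smallest p, had medians of 10.0 and 11.9 CPM in AF. Its AM medians were 2.22 and 4.47 CPM, and its difference was -0.98 (SE 0.33, adjusted p = 0.407).

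In the Wnt pathway itself no gene was called by edgeR with all libraries. Of 25 ligands, receptors and inhibitors, 10 had a positive and 15 a negative difference, with a median of -0.10. That median was 0.02 without AM knockout 1, with 14 positive, and -0.20 without AM knockout 5. Ryk, a Wnt co-receptor, was at 59.0 to 74.7 CPM (median 64.3) in AF controls and 45.9 to 53.4 (median 49.4) in AF knockouts, which did not overlap. In AM it was at 39.5 to 52.6 CPM (median 44.9) in controls and at 34.5, 42.0, 51.4, 53.2 and 54.0 CPM in knockouts, which did. Its AF effect was -0.42 (SE 0.10, adjusted p = 0.0521) and its difference -0.47 (SE 0.14, adjusted p = 0.372). Of 26 catenins, cadherins and destruction complex genes, 17 were positive with a median of 0.11. It was 0.16 without AM knockout 1, 0.08 without AF knockout 6 and 0.0025 when libraries were scaled by their totals alone. The kinase Gsk3a had a difference of 0.22 (SE 0.09, adjusted p = 0.530). Of 12 Wnt target and feedback genes, 9 were negative, with a median of -0.22 and 1 with an unadjusted p below 0.05. Over all genes 48.1% of differences were positive, and 4.90% were negative with an unadjusted p below 0.05. The target median was -0.12 without AM knockout 1, -0.12 without AF libraries 5 and 6 of both genotypes and -0.34 without AM knockout 5. Myc, a growth factor-induced transcription factor, had medians of 251 and 200 CPM in AF and of 216 and 290 CPM in AM, for a difference of -0.73 (SE 0.27, adjusted p = 0.433). Axin2, the feedback inhibitor induced by β-catenin, had 11.1 ± 3.70 and 6.30 ± 2.02 CPM in AF, and 16.7 ± 4.82 and 11.9 ± 3.22 CPM in AM, and its difference was -0.33 (SE 0.35, adjusted p = 0.835).

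**Figure D5:**
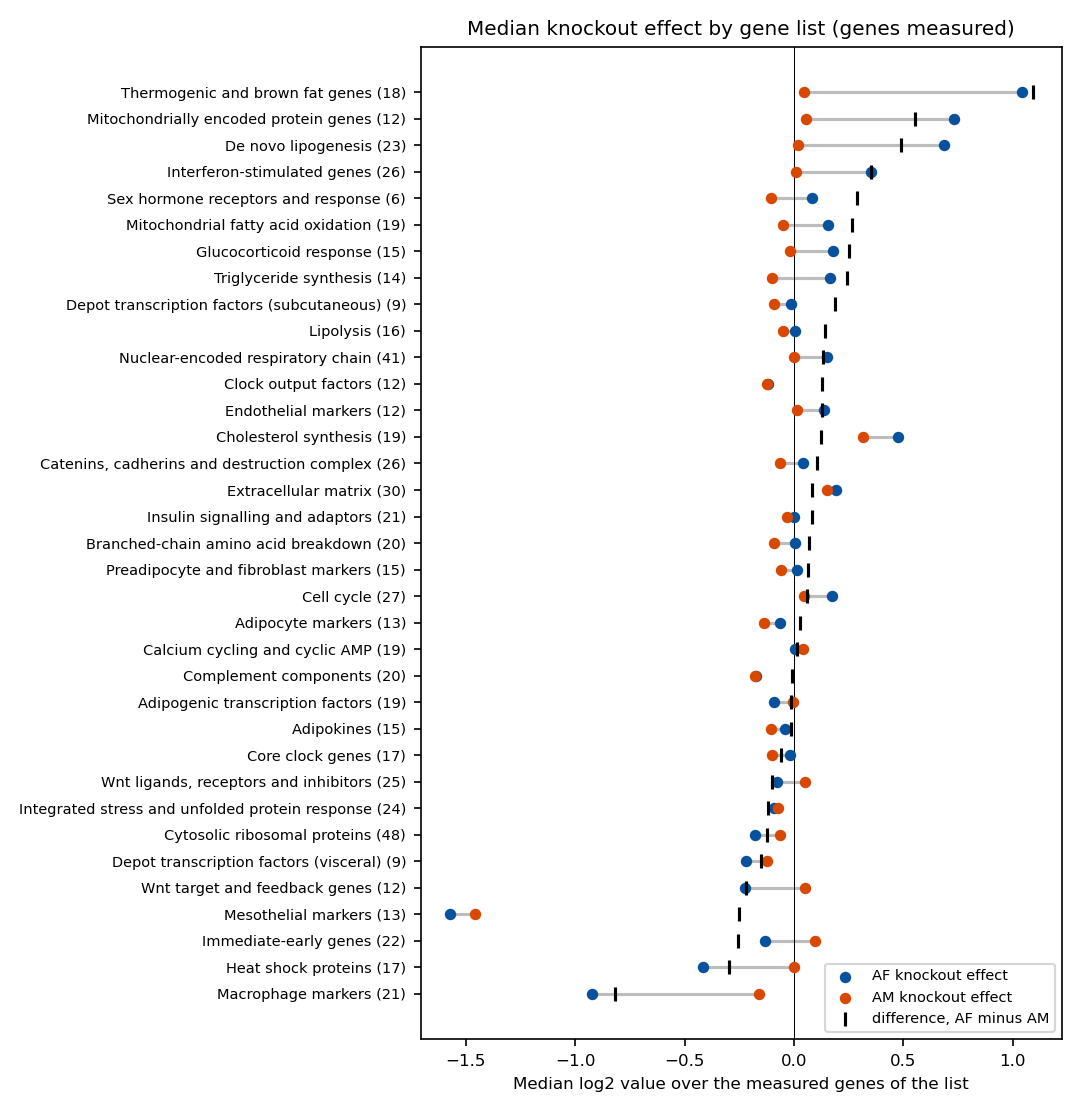
Median knockout effect in AF (blue) and AM (orange) adipocytes and median difference (black tick) over the measured genes of each list, on the log2 scale, with the number of genes in brackets. Thermogenic genes lie farthest to the right (median difference 1.09) and macrophage markers farthest to the left (-0.82), and no list held a gene called by edgeR with all libraries, whereas DESeq2 called Acaa2, Atp5o, Itpr2, Gnal, Atf4, Hoxc10, mt-Co3 and Trem2.

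Markers of other cells and of depot were also read, where 48.1% of all genes had a positive difference. Of 9 measured subcutaneous depot factors, Hoxc10 among them, 8 had a positive difference, with a median of 0.19 (0.03 without AM control 2). Of 9 visceral depot factors 4 were positive, with a median of -0.15. The visceral median was 0.01 without AF control 6 and 0.05 without AF libraries 5 and 6 of both genotypes. Of 13 measured mesothelial markers, 8 had a negative difference with a median of -0.25, and their AF and AM effects were alike in sign (-1.57 and -1.46). Their summed level over 14 listed genes was 26.2 to 135 CPM in AF controls, 24.7 to 60.7 in AF knockouts, 24.4 to 139 in AM controls and 15.3 to 38.4 in AM knockouts, and the median difference was 0.33 without AF control 4, -0.80 without AM control 1 and -0.45 without AF libraries 5 and 6 of both genotypes. The 15 epididymal and sperm markers summed to at most 0.324 CPM in AF libraries and to 0.0903 to 6.45 CPM in AM libraries. Of 17 mammary and skin epithelial markers 5 were at 0 in AF controls and 7 in AF knockouts, and their sum reached 57.8 CPM in AF control 4. Endothelial markers summed to 237 to 774 CPM in all libraries, with a median difference of 0.13 that was -0.02 without AF knockout 4, 0.06 without AF libraries 5 and 6 of both genotypes and 0.41 without AM knockout 5. The part of these cells and of depot in the contrast was not tested.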

How the data were processed

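The authors deposited raw counts per gene as whole numbers, and log2 values that are regularised logarithms (rlog, -2.36 to 29.3), per the file headers. FastQC 0.12.1, STAR 2.7.11a, DESeq2 and the build mm39 were used, per the submitters' processing notes. How reads were counted, with which annotation and whether by strand, is not given in the sources used here. Their rlog values served only to check direction: all 44 named genes had the same sign in them. No other sample columns were present (0), and no 2 libraries of the same group agreed within counting noise (lowest chi-square per degree of freedom 12.9).

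Symbols and chromosomes came from GENCODE M21 by gene identifier (33522 of 35120 genes; the 1598 not found held 0.122% of counts). Counts were filtered with filterByExpr (minimum count 10), scaled by TMM and fitted in edgeR 4.0.16 (R 4.3.3) as 4 groups (19 residual degrees of freedom). The contrast was tested with the robust quasi-likelihood test, with Benjamini-Hochberg adjustment over the 14227 genes tested. X and Y genes (449) and 202 genes without a placed chromosome stayed in the fit and are not counted, and 0 of the X and Y genes were called. The mitochondrial share was tested by exact permutation. On simulated counts of 14067 genes, the difference of effects was recovered for 61 of 100 genes changed by 1 and 94 of 100 changed by 2 on the log2 scale, with 8 false genes among 163 called.

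Named genes were Ctnnb1, up to 10 genes each way (called first, then by smallest p, with a mean of at least 1 CPM in 1 group, predicted genes left out), and the member of smallest p of each of 30 pathway lists. The members and lists were chosen with earlier results of these data known. Other list members, the Serpina3 cluster and the genes without overlap in both sexes were chosen after their values were seen. The alternatives changed the scaling, the filter or the tool (DESeq2 1.42.0; voom of limma 3.58.1), or used other sets of genes or libraries, replicate blocks and leaving out each library. Leaving out AM knockout 5 and AF control 4 together, and leaving out AF libraries 5 and 6 of both genotypes or giving them a term in the fit, were added after seeing the data. Replicate numbers were checked for pairing by the correlation of same-numbered libraries' deviations from their group means within each sex.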

Additional observations from a re-analysis of the deposited data

Results flagged for a closer look

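The difference of knockout effects between AF and AM adipocytes passed its own test for 2 genes and 1 share: Serpina3k (2.01 on the log2 scale), Akirin2 (-0.57) and the share of counts on mitochondrially encoded genes (2.05 percentage points). The share passed in percentage points only, and not on its log2 (0.37, exact permutation test, p = 0.197). The null of that test was no genotype difference in either sex, which is wider than equal effects.

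In 8 of 180 checks of a named gene or the mitochondrial share in a group, 1 library stood apart from the rest, where chance gives about 1 in 20. Hoxc10 was at 20.8 CPM in AF knockout 3, with the next at 17.1. Slc11a1 was at 22.5 CPM in AM knockout 4 (next 16.8), Hilpda at 229 CPM in AM control 1 (next 145) and Cebpb at 321 CPM in AM control 3 (next 280). Fkbp5 was at 27.6 CPM in AF control 4 (next 17.9). Mccc1 was low in AF knockout 4, at 280 CPM, with the next at 330. AM knockout 5 stood apart for 2 genes, Tm7sf2 at 18.7 CPM (next 8.72) and Rrm1 at 19.1 CPM (next 12.8). It also stood apart over all genes, with a chi-square per degree of freedom of 133 to 162 against the other AM knockouts. Pairs of those others had 12.9 to 34.6, while pairs within the AF groups reached 189. Without AM knockout 5, 1987 of 13683 genes had an unadjusted p below 0.05 with edgeR, against 1211 of 13576 with all libraries.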

How the results depend on the processing

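The count of genes called, 2 as reported, was also 2 with RLE, upper-quartile or totals-only scaling, a minimum count of 50, limma-voom, autosomal and mitochondrial genes only, or mitochondrial genes left out. It was 1 without a filter on low counts, 20 with DESeq2, 0 with all 30 libraries in the fit and 6 without AM knockout 5 and AF control 4 together. It was 3 without AF libraries 5 and 6 of both genotypes and 3 with them as a term. Leaving out each library gave 0 to 20 genes. Serpina3k was called in 33 of 38 alternatives (adjusted p up to 0.680) and Akirin2 in 22 of 38. None of the 44 genes named by rule changed sign in any alternative. Ucp1, which is not among the 44, turned to -2.06 without AM control 2. The difference in mitochondrial share was 0.37 on the log2 of the share (exact permutation test, p = 0.197, no longer past the threshold), 1.97 points over protein-coding genes, and 1.80 to 2.24 points when each library was left out. In AF, 5 of 6 same-numbered pairs correlated at 0.11 to 0.54 and 1 at -0.06. AF controls 4 and 5 correlated best with the knockout of their own number, and AF controls 1, 2, 3 and 6 did not. In AM the correlations were -0.16 to 0.17 by title number. AM knockout 5, numbered 6 in its column name, gave -0.32 with AM control 6. No label ties the numbers, so the main fit did not take them as pairs, but the AM values cannot settle whether AF libraries share structure. With the replicate number as a block within sex, 1 gene was called by title number and 1 by column number, Serpina3k in both. In these 2 fits 1661 and 1621 genes had an unadjusted p below 0.05 with edgeR, and Akirin2 was not called. At these depths, levels under about 1 CPM rest on few counts, and the self-test missed 39 of 100 genes with a difference of 1.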

Other observations

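Genes of other lists gave these values, none of whose differences passed the adjusted test of edgeR with all libraries. Over all genes 48.1% of differences were positive. Col27a1, a fibrillar collagen, was at 0.339 to 0.870 CPM in AF controls and 1.31 to 3.60 CPM in AF knockouts, a rise of 1.81 (log2, SE 0.30, adjusted p = 0.00382), and lay at 0.130 to 0.542 CPM in AM libraries. Its difference of effects was 1.67 (SE 0.52, adjusted p = 0.379), while 17 of 30 extracellular matrix genes were positive with a median of 0.09, which was -0.04 without AF knockout 3, -0.03 with totals-only scaling and 0.03 without AF libraries 5 and 6 of both genotypes. Cebpb, an adipogenic transcription factor, had a difference of -0.61 (SE 0.22, adjusted p = 0.426), with medians of 272 and 183 CPM in AF and 271 and 296 CPM in AM, and 9 of 19 adipogenic factors were positive. Lpl, the lipase that frees fatty acids from lipoproteins, had a difference of 0.38 (SE 0.16, adjusted p = 0.530), and 6 of 15 genes in the list of adipokines and secreted products were positive.

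Rpl19 was the ribosomal protein gene of smallest p and had a positive difference of 0.41 (SE 0.17, adjusted p = 0.518), against the negative median of its list. In AM its knockouts (53.1, 62.9, 63.3, 69.8 and 78.6 CPM) lay below its controls (83.9 to 111 CPM) without overlap. Rrm1, a subunit of ribonucleotide reductase, had a difference of 0.44 (SE 0.16, adjusted p = 0.432), and 0.61 without AM knockout 5 (adjusted p = 0.0496). Hilpda, a hypoxia-induced inhibitor of lipolysis, had -0.90 (SE 0.41, adjusted p = 0.546), the phosphatidate phosphatase Lpin2 -0.51 (SE 0.22, adjusted p = 0.530), the sterol reductase Tm7sf2 0.90 (SE 0.40, adjusted p = 0.543) and Mccc1, of leucine breakdown, 0.31 (SE 0.14, adjusted p = 0.543). Of 19 cholesterol synthesis genes 12 were positive, with a median of 0.13 (0.03 without AF knockout 1, 0.44 without AM knockout 5), although their median effect was positive in both AF (0.47) and AM (0.31). Usp2, a clock-controlled deubiquitinase, had 0.42 (SE 0.22, adjusted p = 0.604), and Hoxa5 had 0.21 (SE 0.16, adjusted p = 0.737).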
